A study of Mus musculus with 6 samples.

Results

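The heterogeneous nuclear ribonucleoproteins (hnRNPs, genes named Hnrnp) and the serine/arginine-rich splicing factors (SR proteins, genes named Srsf) were followed in cardiac macrophages from mice without legumain. Members were the rows of the deposited gene table whose symbol begins with Hnrnp or Srsf, with names containing -ps left out: 31 of 34745 genes, 20 Hnrnp and 11 Srsf. The pair of families was selected on measured values of this contrast, the higher Hnrnpf level in Lgmn KO libraries, so Hnrnpf values in both genotypes are given as a description with no test. Of the 31 members, 30 passed edgeR's filter on low counts. Srsf12 had 0 counts in all 6 libraries, which allows up to 0.125 to 0.153 CPM (a gene's counts scaled to the library's total) by counting error alone, as 3 counts of each total.

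The study sequenced RNA of macrophages from hearts of C57BL/6 mice, 8 weeks old, with 3 Lgmn KO libraries (replicates 1, 2 and 4) and 3 WT libraries (replicates 1, 2 and 3). Cells were taken after myocardial infarction according to the design text. The protocols mention coronary ligation and sham surgery without assigning them to animals, and they describe staining for the surface proteins CD45, CD64 and CD11b for flow cytometry. Legumain, the Lgmn product, is a lysosomal protease that cuts after asparagine; the labels give neither the deleted exons nor the cells that lack it, nor do they say that libraries are separate animals, so a p-value here measures the spread between libraries alone. Lgmn itself stood at 78.6, 88.4 and 83.4 CPM in Lgmn KO libraries, against 2203, 2690 and 2276 CPM in WT libraries, or 3.49% of the WT mean.

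Both families act on RNA as it is transcribed. hnRNPs coat nascent transcripts through RNA-recognition or KH domains and often block splice sites, while SR proteins bind exonic enhancers and recruit the spliceosome through a domain rich in arginine and serine. Many members shuttle to the cytoplasm, where they also affect export, stability and translation, and several keep their own level in check by splicing an exon that destroys their mRNA. In mouse macrophages, hnRNP M is known to slow the splicing of inflammatory transcripts such as Il6, and hnRNP A0 to bind AU-rich cytokine mRNAs.

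Some members have near-identical copies elsewhere in the genome, which bears on what a count per gene can show. The coding sequence of Hnrnpf, which encodes a binder of G-rich RNA, was set against that of Gm6430, a copy on chromosome 1. Of 1245 bases, 1236 were identical and 9 differed (99.3%). The coding sequence of Hnrnpa3, a member of the A/B group related to hnRNP A1 and A2/B1, was set against Gm6793, an intronless copy on chromosome 8, and 1046 of 1053 aligned bases were identical, with 7 different and 18 of Hnrnpa3 unaligned. The following windows of 90 coding bases (GENCODE M21 transcripts, GRCm38) hold 3 differences in each pair, printed in capitals; each is read along its own gene's strand, at chr6:117924871-117924960 (plus) for Hnrnpf, chr1:97025795-97025884 (plus) for Gm6430, chr2:75661719-75661808 (plus) for Hnrnpa3 and chr8:112014742-112014831 (minus) for Gm6793. They are shown because reads falling between such differences match both genes.
Hnrnpf: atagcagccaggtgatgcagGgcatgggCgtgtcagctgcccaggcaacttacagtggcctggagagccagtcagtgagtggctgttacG
Gm6430: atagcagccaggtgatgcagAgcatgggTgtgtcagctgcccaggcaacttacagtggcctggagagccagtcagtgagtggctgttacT
Hnrnpa3: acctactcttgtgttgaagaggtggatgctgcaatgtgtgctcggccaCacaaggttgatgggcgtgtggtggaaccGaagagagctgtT
Gm6793: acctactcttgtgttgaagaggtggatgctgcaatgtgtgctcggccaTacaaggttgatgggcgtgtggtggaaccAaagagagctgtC

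Promoters were read for the same pair of genes, since they differed most between libraries. RefSeq (GRCm38.p6) gave 41 promoters of 300 bases (250 before to 50 after a start) for 29 of the 31 members. Capitals mark 4 motifs sought on both strands: the GC box GGGCGG, the CCAAT box CCAAT, the E-box CACGTG and the TATA box TATAAA. Hnrnpf has 4 annotated starts, of which 1 is printed, at chr6:117906532-117906831 (plus), and the Hnrnpa3 window is chr2:75659009-75659308 (plus).
Hnrnpf promoter: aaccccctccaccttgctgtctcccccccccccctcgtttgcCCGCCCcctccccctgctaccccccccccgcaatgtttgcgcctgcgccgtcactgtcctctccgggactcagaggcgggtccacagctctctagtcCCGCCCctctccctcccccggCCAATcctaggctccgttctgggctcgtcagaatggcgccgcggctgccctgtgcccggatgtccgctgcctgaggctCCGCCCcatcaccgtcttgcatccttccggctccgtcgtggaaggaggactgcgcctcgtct
Hnrnpa3 promoter: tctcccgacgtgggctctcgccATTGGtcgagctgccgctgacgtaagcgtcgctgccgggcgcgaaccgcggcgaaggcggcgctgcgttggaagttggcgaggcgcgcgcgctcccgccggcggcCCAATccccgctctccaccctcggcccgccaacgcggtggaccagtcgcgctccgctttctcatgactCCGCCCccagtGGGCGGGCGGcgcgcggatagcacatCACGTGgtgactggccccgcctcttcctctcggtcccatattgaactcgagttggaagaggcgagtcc
The printed Hnrnpf window holds 3 GC boxes and 1 CCAAT box, and that of Hnrnpa3 holds 3 GC boxes, of which a pair overlap each other, 2 CCAAT boxes and 1 E-box. The other Hnrnpf windows differ from the printed one. That at chr6:117900090-117900389 holds none of the 4 motifs and has 7 CpG dinucleotides and 49.3% GC. Those at chr6:117907554-117907853 and chr6:117917044-117917343 hold 6 GC boxes each, the former also 1 CCAAT box and 1 E-box. Over all member promoters the GC box was present in 82.9%, against 35.7% of 32851 RefSeq promoters of the same length. CCAAT was present in 51.2% against 37.4%, the E-box in 12.2% against 7.15% and TATAAA in 9.76% against 13.6%. Member promoters had a median of 31 CpG dinucleotides and 68.3% GC, against 7 and 52.7% over all promoters. These are matches of letters, and counts per gene do not show which start was used.

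Hnrnpf was the member with the clearest separation of the genotypes. Its counts were 7012, 6614 and 7391 in Lgmn KO libraries, against 3587, 4126 and 3953 in WT libraries. On the CPM scale, with edgeR's TMM library scaling, these were 346, 338 and 348 CPM in Lgmn KO, against 174, 191 and 165 CPM in WT. Every Lgmn KO library lay above every WT library. The families were selected on this difference, so nothing is read from its size or its stability. The means were 344 ± 5.42 CPM across Lgmn KO and 177 ± 13.2 CPM across WT (SD, n = 3 each), a fitted difference of 0.96 on the log2 scale (SE 0.07) or 1.95-fold. Leaving out any single library kept the log2 difference between 0.91 and 1.02. The deposited FPKM (fragments per kilobase, scaled to library size) averaged 36.0 ± 0.360 in Lgmn KO and 18.7 ± 1.39 in WT (SD, n = 3 each).

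The Hnrnpf gene (ENSMUSG00000042079) spans chr6:117900324-117925622 on the plus strand. Of its 3128 transcript windows of 50 bases, 61.9% also occur in 11 other annotated genes. Rows for 3 of those were used: Gm28901 had 0 counts in all 6 libraries, 4933440N22Rik had 7, 14 and 20 counts in Lgmn KO against 14, 18 and 23 in WT, and RP23-89M16.5 had 10, 12 and 7 counts in Lgmn KO against 13, 5 and 9 in WT. The last pair are annotated on the opposite strand within Hnrnpf, and no source used here states whether strand was used in counting. Whether reads of these genes were counted in Hnrnpf, or the reverse, was not tested. Gm6430 had no row used here, so the share of Hnrnpf reads that could belong to it was not tested. The 12 tested genes within 1 Mb of Hnrnpf had log2 differences between -1.16 (Zfp9) and 0.34 (Rasgef1a) and a median of -0.006.

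The F/H group binds G-rich RNA. Hnrnph1, also a binder of G-runs, had 75.4, 90.003 and 80.4 CPM in Lgmn KO against 66.6, 76.6 and 75.8 CPM in WT, a log2 difference of 0.17 (SE 0.09; adjusted p = 0.411, edgeR's quasi-likelihood test with Benjamini-Hochberg adjustment over all 12546 tested genes, as for each adjusted p that follows). Its groups overlapped. Hnrnph2, the X-linked copy, averaged 163 ± 11.6 CPM across Lgmn KO and 160.3 ± 5.65 CPM across WT (SD, n = 3 each). Hnrnph3, which lacks one of the RNA-binding domains of its relatives, averaged 14.3 ± 1.09 CPM across Lgmn KO and 13.9 ± 0.539 CPM across WT (SD, n = 3 each). Neither passed the test (adjusted p = 0.924 and 0.891, edgeR). Summed over the 4 genes, the group held 590, 601 and 617 CPM in Lgmn KO libraries, against 409, 444 and 420 CPM in WT libraries. The sum includes Hnrnpf, on whose higher level the families were selected, so nothing is read from its difference between genotypes. Hnrnph1, Hnrnph2 and Hnrnph3 each overlapped between genotypes. Hnrnpf made up 58.6%, 56.2% and 56.4% of that sum, which is not scaled to gene length, in Lgmn KO, against 42.7%, 43.0% and 39.3% in WT.

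Hnrnpa3 split the libraries in a different way. Its counts were 766, 643 and 697 in Lgmn KO, against 765, 93 and 80 in WT, or 37.8, 32.8 and 32.8 CPM against 37.2, 4.30 and 3.33 CPM. WT replicate 1 lay within the range of the Lgmn KO libraries, while WT replicates 2 and 3 stood at 12.5% and 9.67% of the Lgmn KO mean. The lowest of the 4 high libraries was 7.63 times the highest of the 2 low ones. The genotype means were 34.5 ± 2.85 CPM across Lgmn KO and 15.0 ± 19.3 CPM across WT (SD, n = 3 each), and the log2 difference of 1.21 (SE 0.81) did not pass the test (adjusted p = 0.497, edgeR). Without WT replicate 1 the log2 difference was 3.18 (adjusted p = 0.00149, edgeR), and without WT replicate 2 or 3 it was 0.78 or 0.73. No other row of the 34745 had all of these 4 libraries at 5 CPM or more and over 4-fold above both WT replicates 2 and 3, thresholds that were chosen after the Hnrnpa3 values were seen. The same libraries were split the other way, high in WT replicates 2 and 3, by 5 genes under the same thresholds, Gbp4 and Gbp5 among them.

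The gene (ENSMUSG00000059005) spans chr2:75659261-75669407 on the plus strand, and 27.1% of its 50-base transcript windows occur in 46 other annotated genes, of which 6 had rows. Among its retrocopies that had rows, the one with more than a few counts was Gm6793, at chr8:112013433-112015036 on the minus strand. Copies without rows could not be read. Gm6793 had 74.1, 69.5 and 79.1 CPM in Lgmn KO, against 63.1, 74.5 and 69.6 CPM in WT. The levels of Gm6793 overlapped between genotypes (log2 difference 0.10, adjusted p = 0.598, edgeR). Within WT it was lowest in replicate 1, where Hnrnpa3 was high, and whether reads of one gene were counted in the other was not tested. The sum of the pair was 112, 102 and 112 CPM in Lgmn KO, against 100.3, 78.8 and 72.9 CPM in WT, so WT replicates 2 and 3 were lowest in the sum as well. The 10 tested genes within 1 Mb of Hnrnpa3 had log2 differences from -0.69 (Fkbp7) to 0.43 (Ttc30b). The share of Hnrnpa3 in the A/B group's summed CPM, which is not scaled to gene length, was 4.46%, 4.06% and 3.88% in Lgmn KO. In WT this share was 4.37%, 0.510% and 0.413%. The group's sum overlapped between genotypes, at 847, 810 and 847 CPM in Lgmn KO against 852, 844 and 808 CPM in WT.

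**Figure D1:**
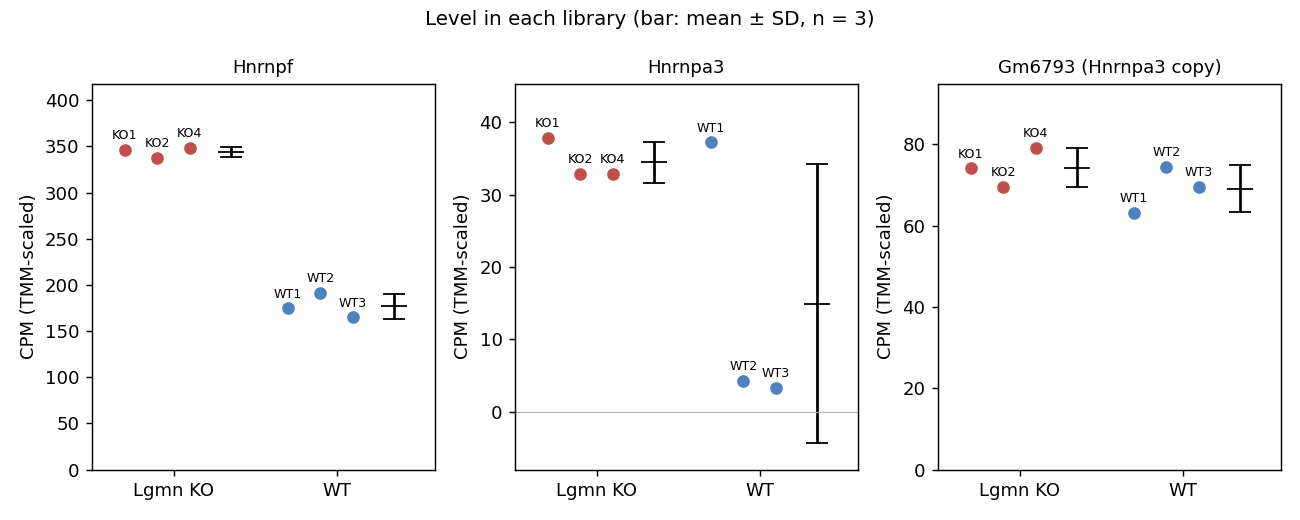
CPM (TMM-scaled) of Hnrnpf, Hnrnpa3 and its intronless copy Gm6793 in each library, Lgmn KO left (red) and WT right (blue), with mean ± SD of 3 libraries beside the points; KO1 to WT3 name the replicates. Hnrnpf lies at 338 to 348 CPM across Lgmn KO and 165 to 191 CPM across WT, Hnrnpa3 is low in WT replicates 2 and 3 only (the lower SD bar runs below 0 for that reason), and Gm6793 overlaps between genotypes.

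Across both families, most members differed little between genotypes. Hnrnpf, on whose difference the families were selected, is left out of the counts of calls. Of the 29 other tested members, 0 were called in either direction in the whole-table fit (adjusted p below 0.05, edgeR), and 1, Srsf3, had an unadjusted p below 0.05. Over all 12546 tested genes 0.311% were called higher, 0.478% lower and 0.789% in either direction, and 17.5% had an unadjusted p below 0.05. DESeq2's Wald test called 0 of the 28 other members to which it gave an adjusted p (it gave none to Hnrnpa3), beside 5.56% of 14017 genes. A q below 0.05 in the authors' deposited table was held by 0 of the 29, beside 3.81% of 17476 genes. Since the families were chosen with this contrast known, nothing is read from these counts. The fitted log2 difference lay within 10% of no change (a fold under 1.1 either way) in 22 of 30 tested members (73.3%), against 47.1% of all tested genes. These shares are not matched for level. Median within-group SDs on the log2 scale were 0.14 in Lgmn KO and 0.15 in WT over all tested genes. For tested genes in the members' range of mean level they were 0.10 and 0.11. The median log2 difference was 0.01 for the 20 Hnrnp genes and 0.06 for the 10 tested Srsf genes, beside -0.002 over all tested genes. Positive and negative values were 10 each among Hnrnp genes, and 9 positive to 1 negative among Srsf genes.

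Groups that did not overlap were higher in Lgmn KO for 8 of 30 members (26.7%), 5 Hnrnp and 3 Srsf, where 10.7% of all tested genes had that pattern. They were lower in Lgmn KO for 1 of 30 (3.33%), Hnrnpc, against 13.0% of all tested genes. In either direction these were 9 of 30, beside 23.7% of all tested genes. Hnrnpf, on whose higher level the families were selected, is among the 8 and the 9, so nothing is read from these shares. Leaving aside Hnrnpf, whose test result is not read here, none of these 9 passed the test. The summed Hnrnp level was 3325, 3305 and 3390 CPM in Lgmn KO libraries, against 3196, 3284 and 3136 CPM in WT libraries. Without Hnrnpf the sums overlapped, at 2979, 2967 and 3042 CPM in Lgmn KO against 3022, 3094 and 2971 CPM in WT. Srsf genes summed to 988, 916 and 890.4 CPM in Lgmn KO, against 885, 858 and 897 CPM in WT. The sum in Lgmn KO replicate 4 lay below that of WT replicate 3, so these groups overlapped too.

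**Figure D2:**
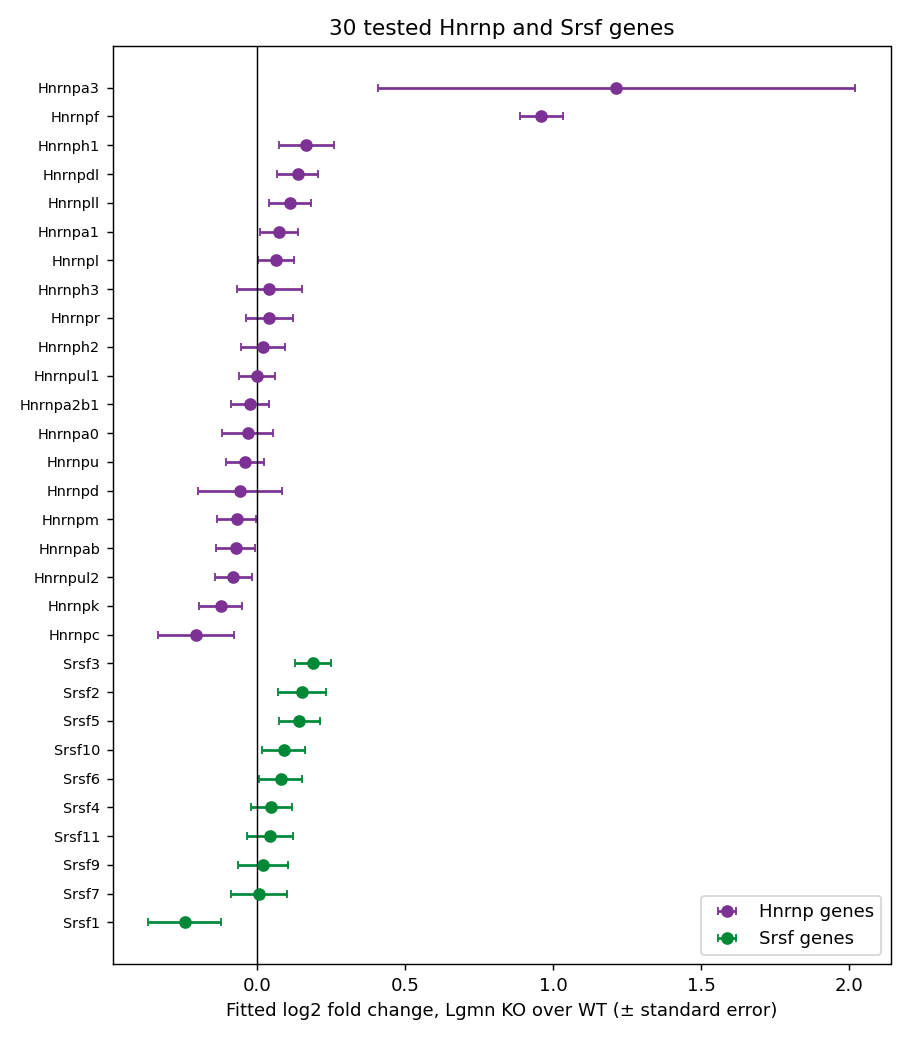
Fitted log2 difference of Lgmn KO over WT with its standard error (horizontal bars) for the 30 tested members, Hnrnp genes in purple above and Srsf genes in green below, each family in order of the difference. Hnrnpf (0.96) and Hnrnpa3 (1.21, SE 0.81) stand to the right of the rest, which lie between -0.24 (Srsf1) and 0.19 (Srsf3).

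Libraries of one genotype agreed closely over the members. The median within-group SD on the log2 scale was 0.09 in Lgmn KO and 0.05 in WT, against 0.10 and 0.11 for the 7262 tested genes in the members' range of mean level, 14.1 to 491 CPM. The widest spread was that of Hnrnpa3 in WT, 1.89. Hnrnpc had the widest in Lgmn KO, 0.27, where replicate 1 stood apart from the others, and Srsf1 followed with 0.25, where replicate 1 was high. Both exceptions come from the same library and go in opposite directions.

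**Figure D3:**
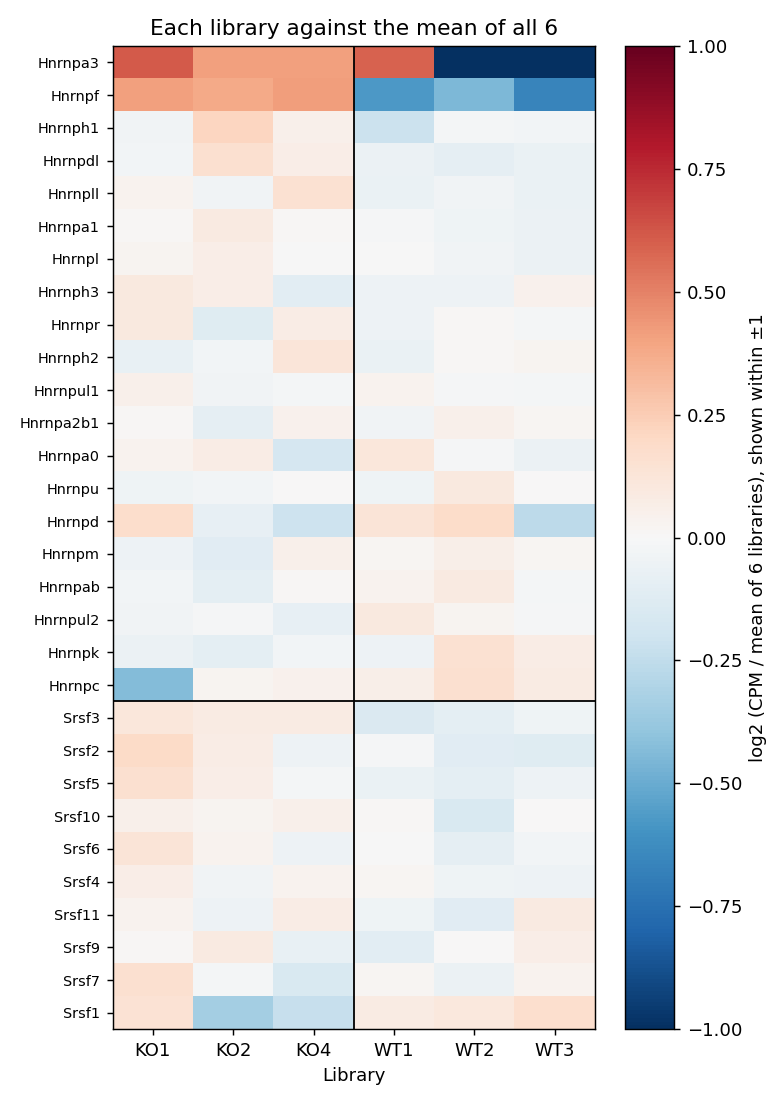
Level of each tested member in each library against its mean over all 6, as log2 of the CPM ratio with colours held within ±1 (red higher, blue lower); columns are the 3 Lgmn KO libraries, then the 3 WT libraries, and rows are Hnrnp genes above Srsf genes, in order of the difference. Hnrnpf changes colour at the line between the genotypes, Hnrnpa3 changes after WT replicate 1, and the other rows stay pale apart from Hnrnpc in Lgmn KO replicate 1, Srsf1 in Lgmn KO replicates 2 and 4, and Hnrnpd.

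To compare genes with each other, levels were taken per length. The length behind the deposited FPKM was longer than the union of a gene's annotated exons (GENCODE M21) for 23 of 30 tested members, at a median ratio of 1.46, and longer than the whole gene for 9. Levels are therefore given as CPM per kilobase of that union, a choice made after the files were seen, with the FPKM rank beside it where they part. Hnrnpab, which binds RNA and also CArG-box DNA, led with 101 ± 3.80 CPM per kb across Lgmn KO and 107 ± 4.19 CPM per kb across WT (SD, n = 3 each). Hnrnpf followed over all libraries, at 113 ± 1.78 CPM per kb across Lgmn KO and 58.0 ± 4.34 CPM per kb across WT (SD, n = 3 each). It thus stood above Hnrnpab in Lgmn KO, while in WT it stood beside Hnrnpa2b1, a binder of N6-methyladenosine-marked RNA, whose 57.4 ± 2.59 CPM per kb across Lgmn KO and 58.4 ± 1.62 CPM per kb across WT did not differ beyond its spread. By deposited FPKM, Hnrnpf ranked 9 of the 30 rather than 2.

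Next in this order came Srsf2 at 54.9 ± 4.64 CPM per kb across Lgmn KO and 49.4 ± 2.11 CPM per kb across WT, and Srsf5 at 44.5 ± 2.84 CPM per kb across Lgmn KO and 40.4 ± 0.594 CPM per kb across WT (SD, n = 3 each). Hnrnpu and Hnrnpul2, at 41.7 ± 0.702 and 40.0 ± 0.994 CPM per kb across Lgmn KO and at 42.9 ± 2.13 and 42.2 ± 1.64 CPM per kb across WT (SD, n = 3 each), overlapped between the genes in WT, while in Lgmn KO every Hnrnpul2 value lay below every Hnrnpu and Srsf5 value. At the low end were Hnrnpa3, Hnrnph3 and Hnrnpr, and Hnrnpr, which is known for binding neuronal beta-actin mRNA, had 2.95 ± 0.242 CPM per kb across Lgmn KO and 2.87 ± 0.0597 CPM per kb across WT (SD, n = 3 each). Srsf10 was the lowest of the detected Srsf genes, at 8.08 ± 0.0775 CPM per kb across Lgmn KO and 7.60 ± 0.479 CPM per kb across WT (SD, n = 3 each).

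**Figure D4:**
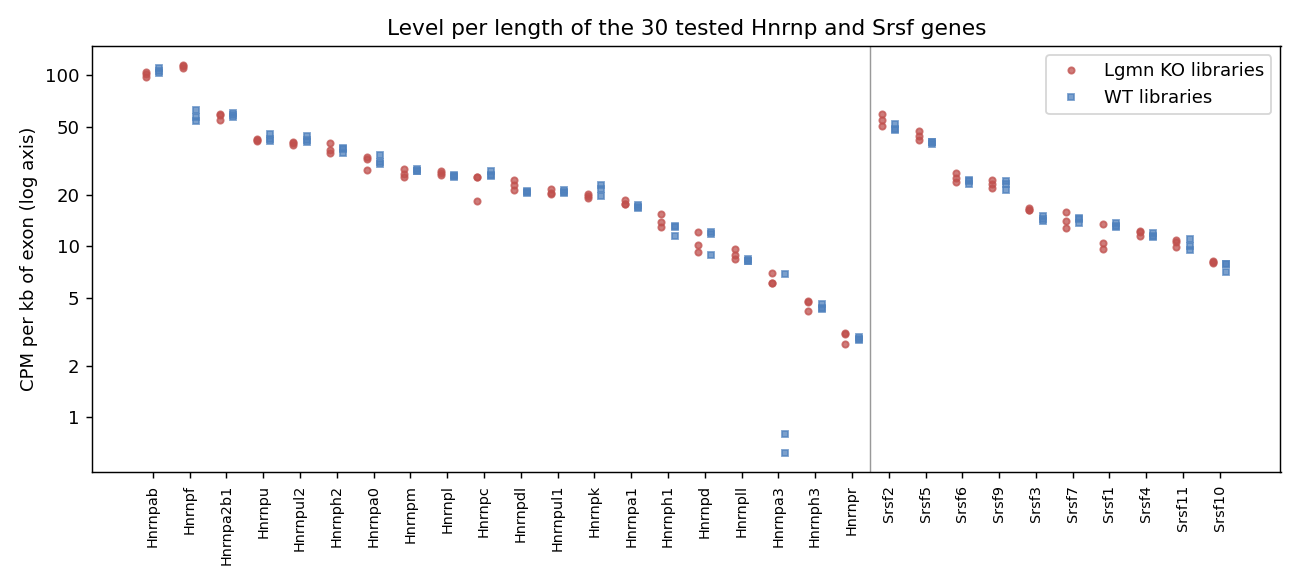
CPM per kilobase of annotated exon (log axis) for the 30 tested members, 1 point per library, Lgmn KO (red circles) left of WT (blue squares) within each gene, Hnrnp genes left and Srsf genes right in order of mean level. Hnrnpf has the widest gap among members whose genotypes do not overlap, and Hnrnpa3 has 2 WT points far below the rest.

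The 3 hnRNP genes of highest deposited FPKM had fitted differences of less than 10% between genotypes. Hnrnpab had 283, 271 and 292 CPM in Lgmn KO, against 296, 308 and 285 CPM in WT (log2 difference -0.07, SE 0.07; adjusted p = 0.628, edgeR). Hnrnpu, also called scaffold attachment factor A, which ties RNA to chromatin, had 477, 482 and 493 CPM in Lgmn KO, against 477, 525 and 491 CPM in WT (-0.04, SE 0.06; adjusted p = 0.797, edgeR). Hnrnpul2, a relative of hnRNP U with a part in DNA end resection, had 286, 290.1 and 276 CPM in Lgmn KO, against 313, 298 and 290.1 CPM in WT (-0.08, SE 0.06; adjusted p = 0.567, edgeR). All 3 have overlapping groups, with Hnrnpul2 touching at a single pair of libraries.

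Hnrnpc and Hnrnpk had the most negative differences among hnRNPs. Hnrnpc, which binds uridine tracts and holds transcripts in the nucleus, had 79.3, 109 and 110.3 CPM in Lgmn KO, against 112, 119.7 and 113 CPM in WT. Lgmn KO replicate 1 lies furthest from the WT libraries. The log2 difference of -0.21 (SE 0.13) did not pass (adjusted p = 0.462, edgeR), and it ranged from -0.29 to -0.06 as single libraries were left out. Hnrnpk, a KH-domain protein that binds C-rich RNA and DNA, had 127, 124 and 129.9 CPM in Lgmn KO, against 128, 148 and 139 CPM in WT (-0.12, SE 0.07; adjusted p = 0.443, edgeR). Hnrnpdl, a relative of the AU-rich-element binder hnRNP D, had 103, 117 and 109 CPM in Lgmn KO, against 101, 98.5 and 100.03 CPM in WT, with no overlap (0.14, SE 0.07; adjusted p = 0.373, edgeR).

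The remaining hnRNP members had log2 differences between -0.07 (Hnrnpm) and 0.11 (Hnrnpll), none past the test. Hnrnpll, known in T cells for the splicing of Ptprc (CD45), averaged 104 ± 6.94 CPM across Lgmn KO and 96.7 ± 1.19 CPM across WT (SD, n = 3 each). Hnrnpl, its relative that binds CA repeats, averaged 159.8 ± 3.67 CPM across Lgmn KO and 153 ± 3.02 CPM across WT, and Hnrnpa1, which antagonises SR proteins at splice sites, averaged 56.5 ± 1.80 CPM across Lgmn KO and 53.7 ± 0.910 CPM across WT (SD, n = 3 each). These 3 had groups without overlap, and Hnrnpa1 shares 28.2% of its windows with 20 other genes. Hnrnpm averaged 212 ± 11.8 CPM across Lgmn KO and 222 ± 2.96 CPM across WT, and Hnrnpa0 averaged 83.4 ± 7.22 CPM across Lgmn KO and 85.3 ± 5.23 CPM across WT (SD, n = 3 each). Hnrnpd, the AU-rich-element binder also called AUF1, averaged 77.3 ± 10.5 CPM across Lgmn KO and 80.4 ± 12.8 CPM across WT (SD, n = 3 each). Hnrnpul1 was nearest to no difference, at 180.2 ± 5.89 CPM across Lgmn KO and 180.3 ± 3.64 CPM across WT (SD, n = 3 each).

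Among SR proteins, Srsf3 had the largest positive difference and Srsf1 the only negative one of the 10 tested. Srsf3, the smallest member and an adaptor for mRNA export, had 132, 129 and 129 CPM in Lgmn KO, against 110.3, 114 and 118 CPM in WT. The groups did not overlap, and the log2 difference of 0.19 (SE 0.06) did not pass after adjustment (adjusted p = 0.181, edgeR). Srsf1, the prototype of the family and a proto-oncogene, had 76.7, 55.1 and 59.2 CPM in Lgmn KO, against 73.7, 74.6 and 78.0 CPM in WT (-0.24, SE 0.12; adjusted p = 0.365, edgeR). Its groups overlapped through Lgmn KO replicate 1.

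Srsf2, which stays mostly in nuclear speckles and marks them, had 176, 163 and 148 CPM in Lgmn KO, against 153, 143 and 142 CPM in WT (0.15, SE 0.08; adjusted p = 0.387, edgeR). Srsf5, known to change with growth signals and insulin, had 189, 177 and 167 CPM in Lgmn KO, against 162, 158 and 163 CPM in WT (0.14, SE 0.07; adjusted p = 0.349, edgeR). Srsf10, which becomes a general repressor of splicing when dephosphorylated, had 56.8, 56.0 and 57.0 CPM in Lgmn KO, against 55.3, 49.3 and 54.9 CPM in WT (0.09, SE 0.07; adjusted p = 0.584, edgeR). Srsf5 and Srsf10 showed no overlap between genotypes and Srsf2 did overlap. Exons of Srsf2 overlap those of Mettl23 and Mfsd11, which share windows with 20.7% of its own.

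The other SR members lay close to no difference. Srsf7, an export adaptor like Srsf3, had 56.6, 50.01 and 45.5 CPM in Lgmn KO, against 51.2, 48.4 and 51.8 CPM in WT, and its log2 difference of 0.01 (SE 0.09) ran from -0.07 to 0.07 as single libraries were left out. Srsf9 had 38.3, 40.5 and 36.0 CPM in Lgmn KO, against 35.3, 38.0 and 39.8 CPM in WT (0.02, SE 0.08), and Srsf11 had 89.3, 83.9 and 91.6 CPM in Lgmn KO, against 84.3, 80.4 and 92.5 CPM in WT (0.04, SE 0.08). Neither has a direction that holds when 1 library is left out. Srsf6 averaged 121 ± 7.72 CPM across Lgmn KO and 115 ± 3.51 CPM across WT, and Srsf4 averaged 42.5 ± 1.52 CPM across Lgmn KO and 41.1 ± 1.07 CPM across WT (SD, n = 3 each); Gm12992 shares windows with 39.5% of Srsf4.

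The wider splicing machinery was read from 3 lists. For comparison, edgeR called 0.789% of all 12546 tested genes and gave 17.5% of them an unadjusted p below 0.05. DESeq2 called 5.56% of 14017 genes. Of 26 other hnRNP-class proteins, such as the PTB and PCBP families, 0 were called in either direction by edgeR's test, 2 had an unadjusted p below 0.05, and the median log2 difference was 0.07; DESeq2 called 1, Cirbp. Cirbp, a cold-induced RNA-binding protein, came nearest, at 18.3 ± 1.19 CPM across Lgmn KO and 13.0 ± 0.566 CPM across WT (SD, n = 3 each; log2 difference 0.49, SE 0.10; adjusted p = 0.0797, edgeR). Ptbp2, the neural PTB protein, had a log2 difference of 0.37 (SE 0.15; adjusted p = 0.261, edgeR). Of 19 tested SR-related proteins, SR protein kinases and importins, 0 were called by edgeR or DESeq2, 0 had an unadjusted p below 0.05, 15 were positive and the median was 0.04. Clk1, a kinase of SR proteins, averaged 83.5 ± 2.87 CPM across Lgmn KO and 71.4 ± 9.82 CPM across WT (SD, n = 3 each), without overlap (0.23, SE 0.11; adjusted p = 0.328, edgeR).

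Tnpo1, the importin that carries hnRNP A1 and related proteins into the nucleus, had 2 levels that did not follow genotype. It had 252, 251 and 122 CPM in Lgmn KO, against 112, 242 and 124 CPM in WT. Lgmn KO replicates 1 and 2 and WT replicate 2 were high and the other 3 low, a different split from that of Hnrnpa3. The log2 difference was 0.39 (SE 0.36; adjusted p = 0.640, edgeR). Of 40 core spliceosome genes, 0 were called by edgeR or DESeq2, 2 had an unadjusted p below 0.05, 21 were positive and the median was 0.001; Plrg1, of the Prp19 complex, had 0.26 (SE 0.08; adjusted p = 0.152, edgeR) and the Sm protein gene Snrpf had -0.35 (SE 0.15; adjusted p = 0.277, edgeR).

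Depth was 19546253 to 24086976 counts per library and similar between genotypes. All 8 macrophage markers passed the filter, with summed levels of 20128 to 23438 CPM across Lgmn KO and 21449 to 23195 CPM across WT. Most of that sum is Lyz2 and Cd68. The median log2 difference of the list was -0.30, and 5 of the 8 had an unadjusted p below 0.05 (edgeR) with lower values in Lgmn KO. Over all tested genes 17.5% had such a p in either direction. None of the 5 was called by edgeR. They were Csf1r (-0.74, without overlap), Fcgr1 (-1.09), Adgre1 (-0.51), Itgam (-0.36) and Mertk (-0.24, without overlap). For Fcgr1, Adgre1 and Itgam, WT replicate 1 lay within the range of the Lgmn KO libraries. The rest of the list were Cd68 (0.18), Ptprc (0.006) and Lyz2 (-0.08), all with overlapping groups. Summed markers of other cells lay between 1.04 and 229 CPM, below the macrophage sum, and for 3 lists the sums did not overlap between genotypes. Not each of these genes was low. Csf3r averaged 190 CPM and Kdr 30.1 CPM across Lgmn KO, with 168 and 29.9 CPM across WT. The 10 T and NK cell markers, 3 of them tested, summed to 1.04 to 1.53 CPM across Lgmn KO and 5.11 to 10.3 CPM across WT, with Trbc2, Ncr1, Gzma and Nkg7 at 0 in all Lgmn KO libraries; Ncr1 was at 0 in all WT libraries too, and Gzma in WT replicates 1 and 3. The 6 fibroblast markers summed to 45.4 to 116 CPM across Lgmn KO and 132 to 180.1 CPM across WT, with Lum at 0 in all Lgmn KO libraries. The 6 neutrophil markers summed to 199.98 to 229 CPM across Lgmn KO and 169 to 199 CPM across WT, nearly all of it Csf3r, whose own levels overlapped. Sums overlapped for dendritic cell markers (2.71 to 5.09 CPM in Lgmn KO, 4.91 to 15.7 CPM in WT), endothelial markers (24.2 to 42.2 in Lgmn KO, 36.6 to 42.2 in WT), B cell markers (1.94 to 2.73 in Lgmn KO, 1.99 to 5.38 in WT) and cardiomyocyte markers (3.21 to 3.82 in Lgmn KO, 3.501 to 4.62 in WT). Flt1 and Zbtb46 among them were called lower in Lgmn KO. The nuclear RNA Neat1 had 608, 1153 and 627 CPM in Lgmn KO, against 501, 423 and 435 CPM in WT (adjusted p = 0.149, edgeR). Malat1, another nuclear RNA, had 307, 378 and 373 CPM in Lgmn KO, against 300, 252 and 284 CPM in WT. Its adjusted p was 0.160 (edgeR), and neither of these RNAs overlapped between genotypes. The mitochondrial RNAs of the same list all overlapped, with log2 differences from -0.19 (mt-Atp6) to 0.08 (mt-Nd5). The part of these shifts in the Hnrnpf difference was not tested. In bulk RNA, fewer cells of a type and less RNA per cell cannot be told apart.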

How the data were processed

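Cardiac macrophage RNA of 3 Lgmn KO and 3 WT libraries was read from 1 deposited table, whose columns were matched to sample titles. The deposited counts are whole read counts per gene, and the deposited FPKM values, log2 fold changes, p-values and q-values are the authors', per the file headers; the log2 fold change of Hnrnpf in the authors' deposited table is 0.947, and 666 of 17476 genes there (3.81%) have q below 0.05. The submitters' processing notes name HISAT2, TopHat, TopHat2 2.0.9 and the human build hg38; 98.6% of the table's gene IDs are in mouse GENCODE M21 (GRCm38), and 80.8% of those, with 25 of the 31 members, have the same position there, so coordinates are given as GRCm38. No source used here gives the aligner settings, the counter or its use of strand.

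Counts of the whole table were filtered with filterByExpr (12546 genes kept), scaled by TMM and compared by genotype alone (Lgmn KO over WT) with edgeR 4.0.16 under R 4.3.3 (glmQLFit, glmQLFTest); p-values were Benjamini-Hochberg adjusted over all tested genes and called below 0.05. Standard errors come from the F statistic, and the common biological coefficient of variation was 16.1%. The procedure was also run on simulated counts in which every gene had that common coefficient of variation, and nothing is read from that run. Libraries held 19546253 to 24086976 counts, with 17.0% to 18.5% of each in its 10 leading genes, and pairs within a genotype differed by 14.0 to 42.7 times sampling noise, so each counted as 1 library. Limits for 0 counts cover counting error only. Shared sequence was sought by exact 50-base windows of GENCODE M21 transcripts, both strands.

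Members, lists and tests were chosen with earlier results of these data known. The named members are Hnrnpf, any called member, the 3 of highest mean FPKM per family and the 4 most positive and 4 most negative per family with a mean of at least 5 CPM; 2 genes per other list were taken by the largest difference. Other members are named by role, and the levels per kilobase of exon were added after the files were seen. Alternatives were DESeq2 1.42.0, upper-quartile scaling, no filter, a threshold of 0.1, a replicate block and leaving out each library.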

Additional observations from a re-analysis of the deposited data

How the results depend on the processing

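Counts of members past the threshold include Hnrnpf, on which the families were selected, so nothing is read from their stability. The count was 1 in the fit as reported and under DESeq2, upper-quartile scaling, no filter on low counts and an adjusted p below 0.1. Leaving out single libraries gave 1 to 2; the second, Hnrnpa3, appeared without WT replicate 1 (log2 difference 3.18). With the replicate block the count was 0, and Hnrnpf had a log2 difference of 0.91. Lgmn KO replicate 4 and WT replicate 3 have no same-numbered library in the other genotype, so under the block they add nothing to the comparison of genotypes. The numbers 1 and 2 are shared by both genotypes. Deviations of same-numbered libraries correlated at r = 0.12 and 0.08 across genes, and those of other pairs at -0.17 to 0.11. These values cannot tell whether same-numbered libraries were paired. Calls over the whole table were 39 with the block against 99 without it, 780 with DESeq2 and 639 without WT replicate 1.

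Family medians stayed between -0.004 and 0.02 (Hnrnp) and between 0.04 and 0.09 (Srsf) as libraries were left out; with the replicate block they were 0.0006 and 0.11. Of 170 values for the 17 named members under these alternatives, 165 kept their direction and 5 changed sign, all on leaving out a library: Srsf11 ranged from -0.0024 to 0.10, Srsf7 from -0.071 to 0.074 and Srsf9 from -0.025 to 0.062. The cause of these changes was not tested. With 3 libraries a group, differences of the size seen in most members are near their standard errors.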
